A study of Mus musculus with 12 samples.

Results

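The comparison set the left ventricles of all 8 UNX/DOCA mice against those of 4 sham-operated mice and asked which changes of the operation and the mineralocorticoid were present with and without the histone deacetylase inhibitor ITF2357. Members were chosen by group label, and all 12 of the 12 libraries in the series were used. Sham vehicle mice (n = 4) had a sham operation and ate normal chow. UNX/DOCA vehicle mice (n = 4) lost a kidney (UNX, uninephrectomy), received deoxycorticosterone acetate (DOCA), a steroid that activates the mineralocorticoid receptor, and ate the same chow. UNX/DOCA ITF2357 mice (n = 4) had the same surgery and hormone, but their chow held ITF2357 (givinostat) from week 4 after surgery for another 4 weeks. The design text calls UNX/DOCA mice a model of diastolic dysfunction. The 2 UNX/DOCA groups were weighted equally, so every value for UNX/DOCA is the mean of the chow groups unless a chow group is named. No sham group received ITF2357, so a gene moved by the drug alone also shifts the UNX/DOCA mean, and such a shift cannot be told apart from surgery and hormone without the comparison of the 2 chow groups given beside it. The sources used here do not give strain, sex or age, or whether sham mice received any implant or saline.

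Removal of a kidney with an excess of mineralocorticoid leads to salt and water retention, raises blood pressure and loads the left ventricle. Ventricles under pressure load are known for higher expression of natriuretic peptides and other genes of the fetal heart, for changed calcium and ion channel genes, and for fibrosis, in which activated fibroblasts lay down collagen and other matrix. The mineralocorticoid receptor and the related glucocorticoid receptor are ligand-activated transcription factors that bind the same DNA element. Histone deacetylases remove acetyl groups from histones and other proteins, and inhibitors of these enzymes shift the transcription of many genes.

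Total counts ran from 23.4 to 34.9 M per library, and mitochondrially encoded genes took 23.7% to 27.8% of them. The cardiomyocyte markers summed to between 67600 and 85200 CPM (counts per 1 M counts of the library) in the 12 libraries, and the ventricular light chain Myl2 was at least 5480 CPM, while the atrial markers Sln, Myl7 and Bmp10 were at or below 0.633 CPM, except Sln at 2.49 CPM in UNX/DOCA ITF2357 replicate 3. Libraries within a group were uneven. The summed neutrophil markers (15 listed) ran from 25.1 to 71.3 CPM in Sham vehicle and from 6.84 to 41.6 CPM in UNX/DOCA ITF2357, but were 37.0, 17.6, 826 and 224 CPM in UNX/DOCA vehicle replicates 1 to 4. The macrophage and monocyte markers were likewise highest in UNX/DOCA vehicle replicate 3 (773 CPM) and replicate 4 (557 CPM), against 250 to 467 CPM in the other 10 libraries. Glucocorticoid-responsive and clock genes also varied within groups, as described with the corticoid targets. In bulk tissue, fewer cells of a type and less RNA per cell cannot be told apart.

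Of 16981 genes tested, 4 passed an adjusted p of 0.05 between UNX/DOCA and Sham vehicle (edgeR quasi-likelihood test, Benjamini-Hochberg adjustment), which is 0.0236% of them. Zdhhc2 and Cysltr1 rose, and Btbd11 and Ccl24 fell. Without adjustment, 3037 genes (17.9%) reached p under 0.05, against 849 for no difference at all, and 307 genes had an adjusted p under 0.1, with 157 higher and 150 lower in UNX/DOCA. Of the genes tested, 9.72% were higher and 8.16% lower at an unadjusted p under 0.05, and the counts of list members given later at that level are read against these shares. In 221 genes (1.30%) all 8 UNX/DOCA libraries lay above all 4 Sham vehicle libraries, and in 200 genes (1.18%) all 8 lay below. These 421 genes are called separated here, and separation is a description that needs no fit.

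The number of calls depended on single libraries. Leaving out UNX/DOCA vehicle replicate 1 gave 186 calls, and leaving out UNX/DOCA ITF2357 replicate 1 gave 148. Leaving out Sham vehicle replicate 3 gave 49, and UNX/DOCA vehicle replicate 3, 30. It was 0 when Sham vehicle replicate 1 or 4, UNX/DOCA vehicle replicate 2 or 4, or UNX/DOCA ITF2357 replicate 3 was left out, and also 0 without UNX/DOCA vehicle replicates 3 and 4 together. The first replicate of each UNX/DOCA group lay nearest to Sham vehicle by another measure. In 1019 genes exactly 7 of the 8 UNX/DOCA libraries lay on 1 side of the Sham vehicle range, and the library that did not was UNX/DOCA vehicle replicate 1 in 280 of these genes and UNX/DOCA ITF2357 replicate 1 in 260, against 51 to 118 for each of the other 6. Other tools gave longer lists from the same counts, with 779 genes in DESeq2 and 1339 in limma-voom with sample weights.

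Of the 4 genes that passed, 3 were separated from Sham vehicle in both chow groups: Cysltr1, Btbd11 and Ccl24. Cysltr1 (ENSMUSG00000052821) encodes a receptor for cysteinyl leukotrienes, lipid mediators made by leukocytes. It was at 2.74, 3.19, 2.10 and 2.36 CPM in Sham vehicle, 5.67, 7.11, 8.48 and 8.74 CPM in UNX/DOCA vehicle, and 4.55, 9.26, 7.15 and 9.11 CPM in UNX/DOCA ITF2357. The lowest UNX/DOCA library was the first replicate on ITF2357, and it still lay above every Sham vehicle library. The mean was 2.89-fold that of Sham vehicle, with a log2 difference of 1.52 ± 0.21 (SE, adjusted p = 0.0272). The difference was 1.52 ± 0.23 on normal chow and 1.53 ± 0.23 on ITF2357, and the chow groups differed by 0.01 (95% interval -0.47 to 0.48).

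Btbd11 (ENSMUSG00000020042), a BTB domain and ankyrin repeat protein, was at 4.49, 3.94, 3.09 and 3.40 CPM in Sham vehicle. It was at 2.06, 1.71, 1.83 and 1.55 CPM in UNX/DOCA vehicle and at 1.85, 1.55, 1.74 and 1.37 CPM in UNX/DOCA ITF2357. All 8 UNX/DOCA libraries lay below the lowest Sham vehicle library, with little spread among them. The Sham vehicle mean was 2.19-fold the UNX/DOCA mean, and the log2 difference was -1.13 ± 0.14 (adjusted p = 0.0272). It was -1.06 ± 0.17 on normal chow and -1.20 ± 0.17 on ITF2357, and the interval for the difference between the chow groups ran from -0.51 to 0.24.

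Ccl24 (ENSMUSG00000004814) encodes eotaxin-2, a chemokine that attracts eosinophils and is made by some tissue macrophages. It was at 2.93, 1.79, 2.49 and 2.44 CPM in Sham vehicle, 1.28, 0.905, 1.54 and 1.26 CPM in UNX/DOCA vehicle, and 0.850, 0.790, 0.557 and 0.621 CPM in UNX/DOCA ITF2357. The 3 groups formed an order with no overlap, Sham vehicle highest and ITF2357 lowest. The pooled log2 difference was -1.36 ± 0.18 (adjusted p = 0.0272), with -0.95 ± 0.22 on normal chow and -1.76 ± 0.23 on ITF2357. The chow groups differed by -0.81 (95% interval -1.32 to -0.30), and the adjusted p of that difference was 0.106. Ccl24 fell while the summed macrophage markers of the UNX/DOCA libraries were within or above the Sham vehicle range in all but 1 library, the first replicate on ITF2357. The part of macrophage content in the Ccl24 result was not tested.

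Zdhhc2 (ENSMUSG00000039470), a palmitoyltransferase that attaches lipid to membrane proteins, stood apart from the other 3 in the chow groups. It was at 6.16, 7.77, 5.82 and 6.81 CPM in Sham vehicle, 7.76, 8.37, 7.65 and 8.34 CPM in UNX/DOCA vehicle, and 15.4, 13.4, 15.3 and 14.2 CPM in UNX/DOCA ITF2357. UNX/DOCA vehicle overlapped Sham vehicle, and the 4 libraries on ITF2357 lay apart from the other 8. The pooled log2 difference was 0.70 ± 0.09 (adjusted p = 0.0272), made up of 0.27 ± 0.11 on normal chow and 1.13 ± 0.11 on ITF2357. The chow groups differed by 0.86 (95% interval 0.64 to 1.09, adjusted p = 0.00566). The pooled call of Zdhhc2 thus rests on the ITF2357 libraries, and Cysltr1, Btbd11 and Ccl24 were the 3 called genes present with and without ITF2357. Present here means separated in both chow groups. Against Sham vehicle, 0 genes passed for UNX/DOCA vehicle by itself and 298 for UNX/DOCA ITF2357 by itself (edgeR). The adjusted p values on normal chow were 0.0649, 0.0649 and 0.0998 for Cysltr1, Btbd11 and Ccl24. Leaving out UNX/DOCA vehicle replicates 3 and 4 put all 4 genes at pooled adjusted p values of 0.0641 to 0.0659. The pooled log2 differences were then 1.41, -1.09, -1.45 and 0.70 for Cysltr1, Btbd11, Ccl24 and Zdhhc2. Over 22 other settings, Cysltr1 passed in 13, Btbd11 in 14, Ccl24 in 13 and Zdhhc2 in 12, with adjusted p values up to 0.172 in each.

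**Figure D1:**
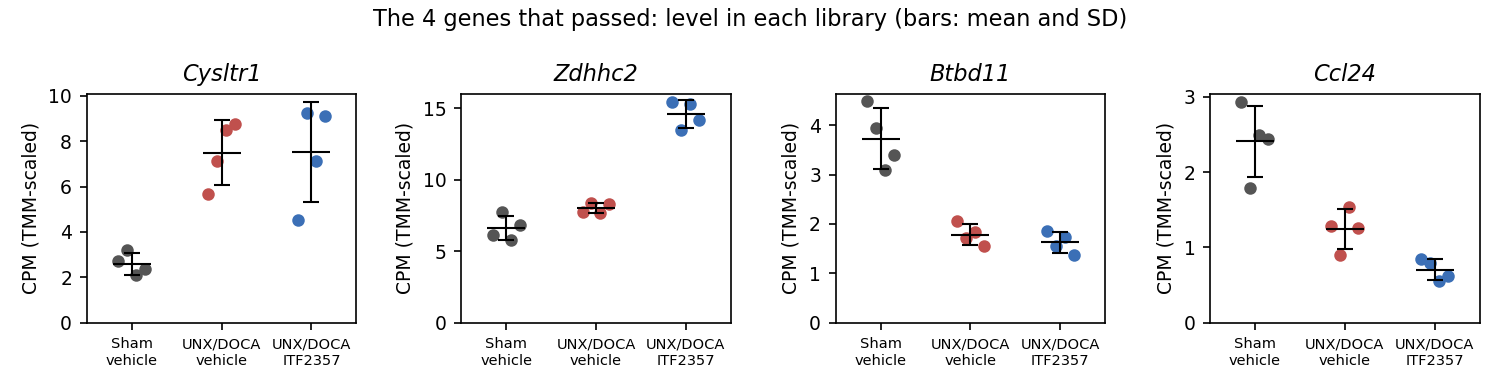
Level of each of the 4 called genes in each library (TMM-scaled CPM, y axis from 0), by group (x axis), with bars for mean and SD (n = 4). Cysltr1, Btbd11 and Ccl24 show 8 UNX/DOCA libraries outside the Sham vehicle range, whereas only the ITF2357 libraries of Zdhhc2 stand apart, at 13.4 to 15.4 CPM.

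In the fit of all 12 libraries, 153 genes (0.901%) differed between UNX/DOCA ITF2357 and UNX/DOCA vehicle. The Sham vehicle level is not part of that difference, but the Sham libraries share in the filter, scaling and spread of the fit. The count was 66, 49, 71 and 47 without Sham vehicle replicate 1, 2, 3 and 4 in turn. Among the 421 separated genes, 1 differed between the chow groups in the main fit (0.238%). It was Zfp763, a zinc finger gene named after its values were seen, at 2.26 to 2.48 CPM in Sham vehicle, 2.68 to 3.00 CPM in UNX/DOCA vehicle and 4.35 to 5.18 CPM in UNX/DOCA ITF2357. Its level was thus outside the Sham vehicle range in both chow groups and higher by a log2 difference of 0.74 (95% interval 0.48 to 0.99, adjusted p = 0.0196) on ITF2357. Separation in both chow groups favours genes at like levels in them, so the low share is no independent result. At an unadjusted p under 0.05, 11.6% of the separated genes and 18.5% of all genes differed between the chow groups. Of the 307 genes with a pooled adjusted p under 0.1, 175 were separated and 18 passed between the chow groups.

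Genes next to the threshold had adjusted p values of 0.0512, a value that many genes share after adjustment. Aqp8, a water channel, was at 1.75, 2.99, 4.63 and 2.96 CPM in Sham vehicle, 10.3, 9.24, 7.15 and 12.2 CPM in UNX/DOCA vehicle, and 5.84, 9.02, 7.28 and 6.46 CPM in UNX/DOCA ITF2357. Every UNX/DOCA library exceeded every Sham vehicle library, and the log2 difference was 1.44 ± 0.23 (1.66 ± 0.25 on normal chow, 1.22 ± 0.25 on ITF2357). Adap1, an ArfGAP protein, was at 2.55 to 3.48 CPM in Sham vehicle, 3.65 to 5.04 CPM in UNX/DOCA vehicle and 6.09 to 7.51 CPM in UNX/DOCA ITF2357, with no overlap between any of the groups. The chow groups of Adap1 differed by 0.65 (95% interval 0.34 to 0.96, adjusted p = 0.057). Ndrg4, which is abundant in heart and brain, stood apart from these, since it was at 46.3 to 69.4 CPM in Sham vehicle and 57.1 to 71.9 CPM in UNX/DOCA vehicle but at 139 to 194 CPM on ITF2357. Its log2 difference was 0.06 ± 0.13 on normal chow and 1.44 ± 0.13 on ITF2357, and the chow groups differed by 1.38 (95% interval 1.09 to 1.66, adjusted p = 0.00104).

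On the lower side the nearest genes encode channels and a chaperone. Scn4a, a voltage-gated sodium channel typical of skeletal muscle, was at 23.8, 23.8, 19.7 and 26.5 CPM in Sham vehicle, 17.1, 11.6, 16.4 and 15.5 CPM in UNX/DOCA vehicle, and 13.5, 10.5, 7.87 and 9.32 CPM in UNX/DOCA ITF2357. All 8 UNX/DOCA libraries were below the Sham vehicle range, with a log2 difference of -0.63 ± 0.16 on normal chow and -1.18 ± 0.17 on ITF2357. Itpr2, an inositol trisphosphate receptor that releases calcium from internal stores, was at 38.2 to 41.6 CPM in Sham vehicle, 24.1 to 29.8 CPM in UNX/DOCA vehicle and 27.9 to 34.7 CPM in UNX/DOCA ITF2357. Dnajb5, a heat shock co-chaperone, was at 112 to 154 CPM in Sham vehicle and at 74.3 to 107 CPM over the 8 UNX/DOCA libraries, with a log2 difference of -0.62 ± 0.12 on normal chow and -0.61 ± 0.12 on ITF2357. Neither Itpr2 nor Dnajb5 overlapped Sham vehicle, and the interval for the chow difference of Dnajb5 ran from -0.25 to 0.27.

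Genes of load and the fetal heart followed. Of 22 genes tested on the list of fetal and hypertrophic genes, 0 passed, 5 were higher and 1 lower at an unadjusted p under 0.05, and Nppa, Tpm2 and Ankrd1 were separated. The median log2 difference of the list was 0.07, against 0.01 for all genes tested, and it was 0.27 on normal chow and -0.17 on ITF2357. Nppa, the precursor of atrial natriuretic peptide, was at 77.8, 86.4, 148 and 143 CPM in Sham vehicle, 310, 222, 276 and 325 CPM in UNX/DOCA vehicle, and 213, 820, 829 and 392 CPM in UNX/DOCA ITF2357. The groups did not overlap with Sham vehicle, and 2 libraries on ITF2357 were well above all others. The UNX/DOCA mean was 3.72-fold that of Sham vehicle, with a log2 difference of 1.81 ± 0.36 (adjusted p = 0.0778). Nppa is also 1 of the 8 atrial markers. Their sum was 281 to 429 CPM in Sham vehicle, 351 to 508 CPM in UNX/DOCA vehicle and 387 to 1010 CPM in UNX/DOCA ITF2357. The atrial light chains Myl7 and Myl4 were no higher than 0.291 and 2.12 CPM in UNX/DOCA. Sln, another atrial marker, was at 2.49 CPM in UNX/DOCA ITF2357 replicate 3, the library with Nppa at 829 CPM. It was at 0 CPM in replicate 2 of that group, with Nppa at 820 CPM, and at most 0.457 CPM in the other UNX/DOCA libraries. The part of atrial content in the Nppa result was not tested.

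Ankrd1, a stress-responsive ankyrin repeat protein of the sarcomere and nucleus, was at 632, 705, 1100 and 798 CPM in Sham vehicle, 1123, 1267, 1440 and 1474 CPM in UNX/DOCA vehicle, and 1324, 1730, 2014 and 1426 CPM in UNX/DOCA ITF2357. The UNX/DOCA mean was 1.82-fold that of Sham vehicle, though the highest Sham vehicle library, replicate 3, nearly reached the lowest UNX/DOCA library (log2 difference 0.86 ± 0.15, adjusted p = 0.0536). Tpm2, beta-tropomyosin, was at 10.6 to 12.7 CPM in Sham vehicle, 16.2 to 26.7 CPM in UNX/DOCA vehicle and 14.1 to 25.7 CPM in UNX/DOCA ITF2357 (log2 difference 0.84 ± 0.16, adjusted p = 0.0659). For Ankrd1 and Tpm2 the intervals of the chow difference, -0.08 to 0.67 and -0.52 to 0.27, included 0. Ankrd1 is a target of stretch signals in cardiac muscle, and Tpm2 is the tropomyosin of slow muscle and of smooth muscle. Of 9 smooth muscle markers tested (10 listed), 2 were higher and 1 lower at an unadjusted p under 0.05, with a median log2 difference of 0.24 (0.15 on normal chow, 0.56 on ITF2357). Of these 9, 7 had a positive log2 difference and 2 a negative one. Cnn1, the calponin of smooth muscle, was at 0.722 to 1.5 CPM in Sham vehicle, 3.51, 6.11, 4.82 and 2.09 CPM in UNX/DOCA vehicle, and 0.702, 2.92, 4.56 and 6.92 CPM in UNX/DOCA ITF2357. Its lowest and highest ITF2357 libraries were those of Tpm2. Myh11 was at 20.4 to 26.2 CPM in Sham vehicle, 27.5, 39.7, 58 and 22.4 CPM in UNX/DOCA vehicle, and 19.7, 30.1, 42.1 and 49.8 CPM in UNX/DOCA ITF2357. Lmod1 and Mylk had the same lowest and highest ITF2357 libraries, at 1.22 and 5.55 CPM for Lmod1 and 19.7 and 35.4 CPM for Mylk. Acta2 and Smtn differed from these markers. Acta2 was at 215 to 366 CPM in Sham vehicle, 259 to 394 CPM in UNX/DOCA vehicle and 83.7 to 248 CPM in UNX/DOCA ITF2357. Smtn was at 134 to 146, 107 to 143 and 94.7 to 103 CPM in the same order. Summed smooth muscle markers, most of them reads of Des, which heart muscle also expresses, were 2280 to 3050 CPM in Sham vehicle, 2600 to 3470 CPM in UNX/DOCA vehicle and 2320 to 3070 CPM in UNX/DOCA ITF2357. The part of smooth muscle content in the Tpm2 result was not tested.

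Other classical load markers did not separate the groups. Nppb, the precursor of B-type natriuretic peptide, was at 260 to 625 CPM in Sham vehicle and 168 to 457 CPM in UNX/DOCA, with a log2 difference of -0.27 ± 0.29. Its sign turned to 0.03 without Sham vehicle replicate 3, the highest library. Myh7, the slow myosin heavy chain of the fetal heart, was at 204 to 344 CPM in Sham vehicle and 305 to 645 CPM in UNX/DOCA (0.63 ± 0.19, adjusted p = 0.137), and Myh6, the adult form, had a log2 difference of -0.19 ± 0.09 (adjusted p = 0.319). Acta1, skeletal alpha-actin, was at 558, 976, 1516 and 1720 CPM in Sham vehicle, 2960, 1881, 2226 and 2774 CPM in UNX/DOCA vehicle, and 369, 1333, 1403 and 660 CPM in UNX/DOCA ITF2357. Only the vehicle libraries lay above the Sham vehicle range, and the log2 difference was 1.04 ± 0.43 on normal chow and -0.34 ± 0.43 on ITF2357. The chow groups differed by -1.39 (95% interval -2.34 to -0.43, adjusted p = 0.136).

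Acta1 is a textbook target of the serum response factor SRF, which binds the CArG box. Among the RefSeq promoter windows of the named genes (GRCm38.p6, the bases before the transcription start, both strands searched), Acta1 was the 1 of 72 named genes with a window that held this box. It is held by 1.62% of all 27025 genes with a window and by 1.47% of the 32851 windows. In Acta1 it lies 73 bases before the start and is shown because Acta1 was the load gene that lay above the Sham vehicle range on normal chow alone, with the CArG box in capitals (chr8:123894776-123895025, minus strand, 5′ to 3′).
Acta1: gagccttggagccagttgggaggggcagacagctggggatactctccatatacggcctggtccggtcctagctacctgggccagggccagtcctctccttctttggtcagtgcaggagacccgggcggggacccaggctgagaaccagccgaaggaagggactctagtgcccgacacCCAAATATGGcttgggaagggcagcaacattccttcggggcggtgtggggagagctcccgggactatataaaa
A match is a description of the letters in the window, and no binding was measured here.

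**Figure D2:**
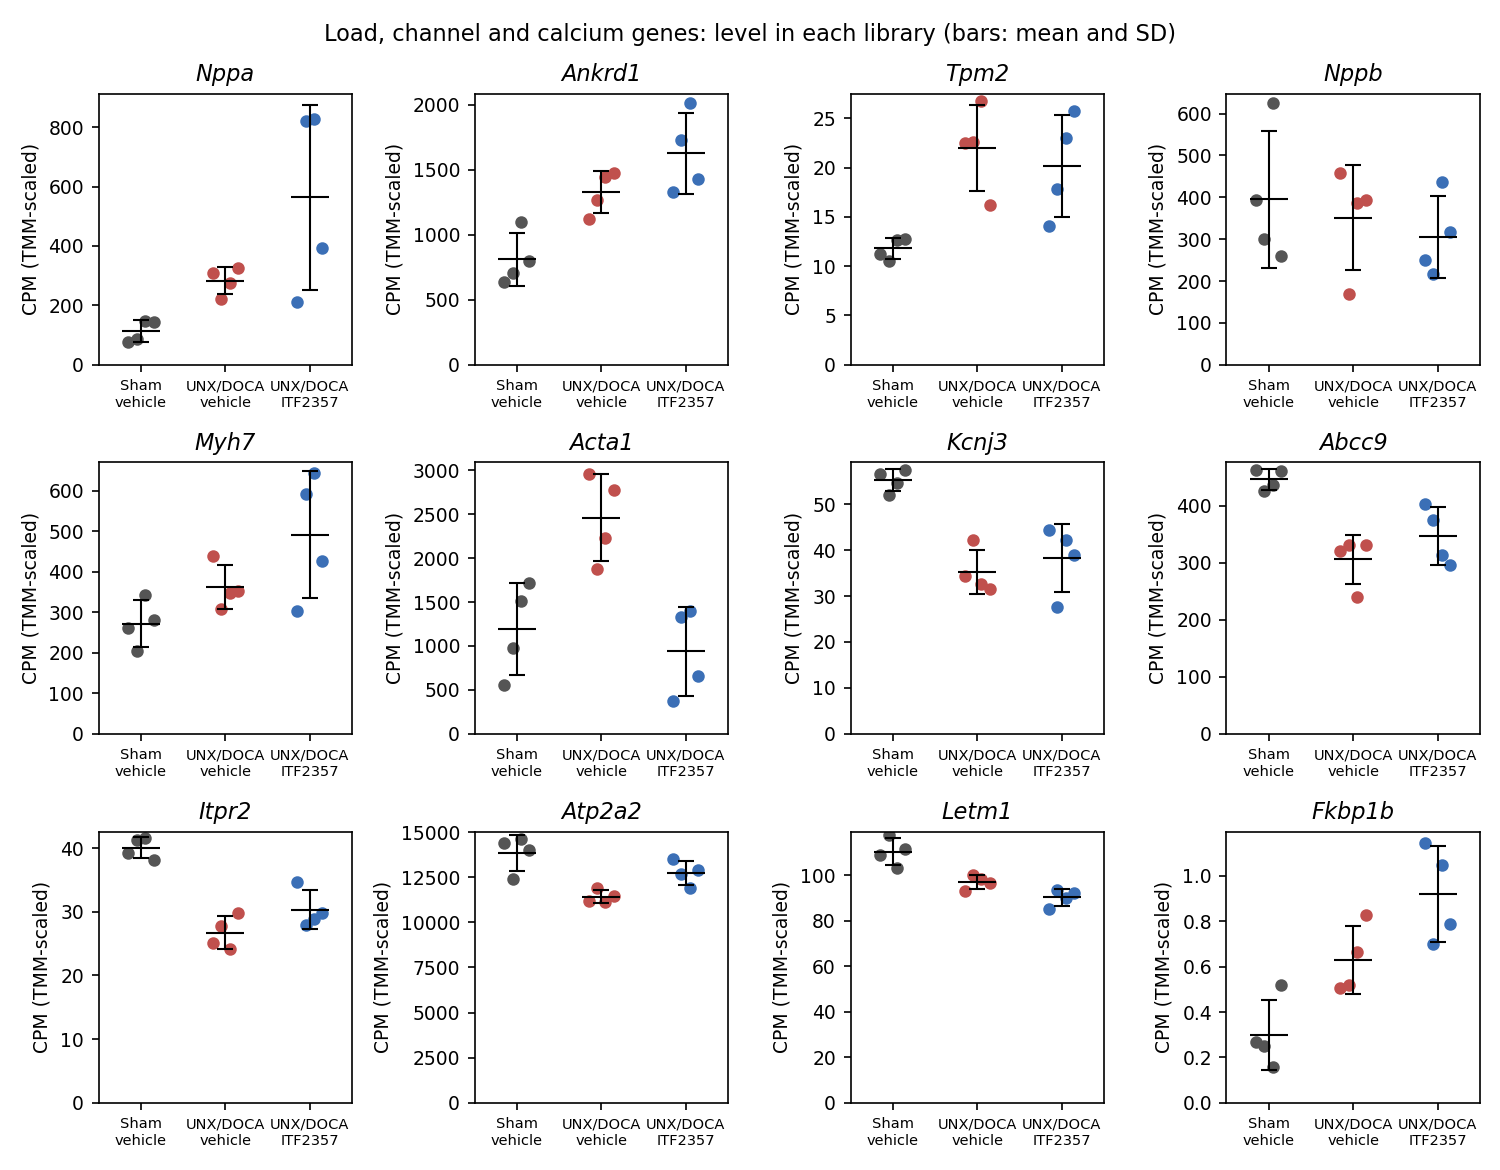
Level of 12 load, channel and calcium genes in each library (TMM-scaled CPM, y axes from 0 with a scale of their own), by group, with bars for mean and SD (n = 4). Nppa, Ankrd1 and Tpm2 lie above Sham vehicle in both chow groups, Kcnj3, Abcc9, Itpr2 and Letm1 lie below it in both, and Acta1 lies above it only in UNX/DOCA vehicle (1881 to 2960 CPM).

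The thin filament and sarcomere genes stayed close to Sham vehicle. Of 24 sarcomere genes, 0 passed, 1 was higher and 5 lower at an unadjusted p under 0.05, and 0 were separated. Tmod1, which caps actin filaments, was at 187 to 209 CPM in Sham vehicle and 160 to 188 CPM in UNX/DOCA (log2 difference -0.23 ± 0.06, adjusted p = 0.0986). Tnni3, cardiac troponin I, had a log2 difference of -0.18 ± 0.05 (adjusted p = 0.131).

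Ion channel genes were mostly lower in UNX/DOCA by their values, although 0 of 33 passed. At an unadjusted p under 0.05, 10 were lower and 1 higher, 25 of the 33 had a negative log2 difference, and Kcnj3, Abcc9 and Trpm4 were separated below Sham vehicle. The median was -0.16, with -0.23 on normal chow and -0.03 on ITF2357. Kcnj3, a subunit of the potassium channel opened by acetylcholine, was at 56.7, 52.1, 54.7 and 57.4 CPM in Sham vehicle, 34.4, 42.2, 32.7 and 31.6 CPM in UNX/DOCA vehicle, and 44.4, 27.6, 42.2 and 38.9 CPM in UNX/DOCA ITF2357. The Sham vehicle libraries lay within a narrow band above all others (log2 difference -0.59 ± 0.11, adjusted p = 0.0622). Abcc9, the sulfonylurea receptor of the ATP-sensitive potassium channel, was at 425 to 462 CPM in Sham vehicle, 241 to 331 CPM in UNX/DOCA vehicle and 296 to 403 CPM in UNX/DOCA ITF2357 (-0.45 ± 0.10, adjusted p = 0.0778). Hcn4, the pacemaker channel, was at 13.8, 8.58, 10.1 and 12.1 CPM in Sham vehicle, 6.65, 5.66, 3.95 and 5.65 CPM in UNX/DOCA vehicle, and 9.43, 3.89, 3.74 and 3.36 CPM in UNX/DOCA ITF2357. The single UNX/DOCA library within the Sham vehicle range of Hcn4 was the first replicate on ITF2357 (log2 difference -1.07 ± 0.25, adjusted p = 0.0889). Kcnj3, Abcc9 and Hcn4 are also atrial, pericyte and conduction markers. Summed pericyte markers, Abcc9 included, were 1210 to 1290 CPM in Sham vehicle, 1110 to 1180 CPM in UNX/DOCA vehicle and 1120 to 1350 CPM in UNX/DOCA ITF2357. Summed conduction markers were 112 to 160, 104 to 117 and 105 to 155 CPM in the same order. The part of these cell types in the results was not tested.

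Calcium handling genes were split. Of 27 tested, 8 were lower and 4 higher at an unadjusted p under 0.05, 0 passed, and 5 were separated below Sham vehicle: Ryr2, the release channel of the sarcoplasmic reticulum, Jph2, which anchors the reticulum to the cell membrane, Hrc, which binds calcium in it, Itpr2 and Letm1. Letm1, a mitochondrial inner membrane protein of ion exchange, was at 103 to 118 CPM in Sham vehicle, 93.2 to 100.3 CPM in UNX/DOCA vehicle and 85.3 to 93.6 CPM in UNX/DOCA ITF2357 (log2 difference -0.24 ± 0.05, adjusted p = 0.0808). Atp2a2, the SERCA2 pump that refills the reticulum, was at 12400 to 14620 CPM in Sham vehicle, 11120 to 11900 CPM in UNX/DOCA vehicle and 11920 to 13490 CPM in UNX/DOCA ITF2357. Only the vehicle group of Atp2a2 lay below Sham vehicle throughout, and the log2 difference was -0.28 ± 0.06 there and -0.12 ± 0.06 on ITF2357 (pooled adjusted p = 0.106). Fkbp1b, which binds the release channel, was low in all libraries but was at 0.158 to 0.521 CPM in Sham vehicle and 0.506 to 1.15 CPM in UNX/DOCA (1.34 ± 0.31, adjusted p = 0.0875).

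In adrenergic and muscarinic signalling, 0 of 23 genes passed, 3 were higher and 4 lower at an unadjusted p under 0.05, and Prkar1a and Rgs2 were separated above Sham vehicle. Prkar1a, a regulatory subunit that holds protein kinase A inactive, was at 630 to 732 CPM in Sham vehicle, 849 to 906 CPM in UNX/DOCA vehicle and 751 to 846 CPM in UNX/DOCA ITF2357 (log2 difference 0.30 ± 0.06, adjusted p = 0.0622). Rgs2, a brake on G protein signals of load, was at 22.6 to 27 CPM in Sham vehicle and 28.0 to 46.4 CPM in UNX/DOCA (0.55 ± 0.13, adjusted p = 0.0942). The chow groups overlapped in Rgs2 and did not in Prkar1a, where normal chow was higher. The intervals of the chow difference were -0.27 to 0.02 for Prkar1a and -0.25 to 0.40 for Rgs2. Pde4b, which degrades cyclic AMP, was at 36.2 to 48.5 CPM in Sham vehicle, 30.8 to 43.0 CPM in UNX/DOCA vehicle and 22.4 to 30.2 CPM in UNX/DOCA ITF2357, so that only the ITF2357 libraries were clear of Sham vehicle. Adcy5, the main adenylyl cyclase of the ventricle, had a log2 difference of -0.31 ± 0.08 (adjusted p = 0.107).

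Of 21 renin-angiotensin and natriuretic genes, 0 passed, with 2 higher and 2 lower at an unadjusted p under 0.05. Agt, angiotensinogen, was at 3.23, 3.63, 6.57 and 3.16 CPM in Sham vehicle, 5.37, 8.37, 6.61 and 8.96 CPM in UNX/DOCA vehicle, and 6.95, 9.47, 6.26 and 10.4 CPM in UNX/DOCA ITF2357. Sham vehicle replicate 3 alone overlapped UNX/DOCA (log2 difference 0.91 ± 0.23, adjusted p = 0.0988). Mme, neprilysin, which degrades natriuretic peptides, was at 12.7 to 19.4 CPM in Sham vehicle, 6.69 to 11 CPM in UNX/DOCA vehicle and 10.6 to 15.1 CPM in UNX/DOCA ITF2357 (-0.60 ± 0.15, adjusted p = 0.0936). Its log2 difference was -0.86 ± 0.17 on normal chow and -0.34 ± 0.17 on ITF2357.

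Genes of the corticoid receptors and their targets were uneven within groups. Of 26 tested, 0 passed and 0 were separated, with 4 higher and 3 lower at an unadjusted p under 0.05 and a median log2 difference of 0.26. The receptors themselves had negative values. Nr3c2, the mineralocorticoid receptor, was at 16.2 to 26.7 CPM in Sham vehicle and 12.2 to 24.2 CPM in UNX/DOCA (-0.43 ± 0.17, adjusted p = 0.223), and Nr3c1, the glucocorticoid receptor, had a log2 difference of -0.38 ± 0.13 (adjusted p = 0.172). Fkbp5, a co-chaperone induced through both receptors, was at 25.4, 35.6, 150 and 20.9 CPM in Sham vehicle, 39.9, 133, 126 and 150 CPM in UNX/DOCA vehicle, and 42.4, 121, 124 and 120 CPM in UNX/DOCA ITF2357. It was low in 3 Sham vehicle libraries and in the first replicate of each UNX/DOCA group, and high in Sham vehicle replicate 3 and the other 6 libraries. The log2 difference of Fkbp5 was 0.88 ± 0.59 (adjusted p = 0.449), and it was 1.96 without Sham vehicle replicate 3.

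Clock genes also varied within groups. Ciart, a repressor within the circadian clock, was at 2.59, 4.25, 19.8 and 3.20 CPM in Sham vehicle, 4.72, 24.2, 18.5 and 9.89 CPM in UNX/DOCA vehicle, and 17.9, 17.9, 22.2 and 23.9 CPM in UNX/DOCA ITF2357. Arntl, the clock activator BMAL1, was at 16.7, 12.6, 6.73 and 19.7 CPM in Sham vehicle, 28.2, 3.49, 4.57 and 10.9 CPM in UNX/DOCA vehicle, and 2.28 to 7.43 CPM in UNX/DOCA ITF2357. Ciart was high and Arntl low in Sham vehicle replicate 3, the Sham library with high Fkbp5, and the reverse held in UNX/DOCA vehicle replicate 1, which had low Fkbp5. The division was not the same as that of Fkbp5, since the first replicate on ITF2357 had low Fkbp5 with Ciart as high as in its group, and UNX/DOCA vehicle replicate 4 had high Fkbp5 with less Ciart than replicates 2 and 3. The sources used here give no time of tissue collection, and the part of these differences in the other results was not tested. Of 19 clock genes 0 passed, with 1 higher and 1 lower at an unadjusted p under 0.05.

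Metallothioneins and Serpina3n, which corticoids can induce, had larger mean differences with wide errors. Mt1, a metal-binding protein, was at 80.9, 97.0, 221 and 109 CPM in Sham vehicle, 174, 372, 423 and 481 CPM in UNX/DOCA vehicle, and 93.2, 377, 180 and 466 CPM in UNX/DOCA ITF2357 (log2 difference 1.33 ± 0.46, adjusted p = 0.18). Mt2, another metallothionein, was at 0.0279 to 0.950 CPM in Sham vehicle and 0.259 to 3.37 CPM in UNX/DOCA (2.62 ± 0.91, adjusted p = 0.175). Both were again highest among Sham vehicle libraries in replicate 3 and lowest among the UNX/DOCA libraries in the first replicate on ITF2357. Serpina3n, a secreted protease inhibitor of the acute phase, was at 33.0 to 52.2 CPM in Sham vehicle, 61.2, 93.8, 310 and 210 CPM in UNX/DOCA vehicle, and 26.9, 132, 109 and 150 CPM in UNX/DOCA ITF2357 (1.79 ± 0.52, adjusted p = 0.132). Its 2 highest libraries were those with the high neutrophil and macrophage markers, and the log2 difference of Serpina3n was 1.23 without them.

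The corticoid response element was searched on both strands as GNACA, any 3 bases, then TGTNC, a pattern that both corticoid receptors can bind. It was found for 0.44% of all 27025 genes with a window (0.387% of 32851 windows) and for 2 of the 72 named genes with a window, Mt1 and Serpina3n. The sequences are shown with the element in capitals because these 2 genes are corticoid targets with UNX/DOCA values mostly above Sham vehicle. The element lies 94 bases before the start of Mt1 (chr8:94178839-94179088, plus strand) and 78 bases before that of Serpina3n (chr12:104406458-104406707, plus strand), in RefSeq windows of GRCm38.p6, 5′ to 3′.
Mt1: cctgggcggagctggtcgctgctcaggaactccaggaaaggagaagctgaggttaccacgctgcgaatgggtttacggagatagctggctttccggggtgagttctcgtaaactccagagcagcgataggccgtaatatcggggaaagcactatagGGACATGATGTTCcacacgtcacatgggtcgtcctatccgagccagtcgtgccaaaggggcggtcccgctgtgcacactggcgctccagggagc
Serpina3n: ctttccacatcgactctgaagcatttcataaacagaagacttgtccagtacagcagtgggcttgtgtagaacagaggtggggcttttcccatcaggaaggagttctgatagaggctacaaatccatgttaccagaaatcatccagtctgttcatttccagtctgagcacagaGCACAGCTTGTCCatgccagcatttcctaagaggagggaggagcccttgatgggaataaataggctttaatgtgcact
No receptor binding was measured, and a missing match in the other windows says only that these letters are not there.

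Fibrillar collagen levels lay on either side of Sham vehicle in the chow groups. The 8 fibrillar collagen genes tested had a median log2 difference of -0.03, which was 0.32 on normal chow and -0.44 on ITF2357, and 0 passed. Col1a1 was at 63.6, 60.8, 50.2 and 65.8 CPM in Sham vehicle, 80.3, 51.8, 121 and 57.7 CPM in UNX/DOCA vehicle, and 32.1, 64.3, 38.4 and 41.8 CPM in UNX/DOCA ITF2357. The chow groups of Col1a1 overlapped Sham vehicle from opposite sides, and its pooled log2 difference was -0.04 ± 0.23. Col3a1, which accompanies Col1a1 in fibrils, was at 127 to 191 CPM in Sham vehicle, 152 to 315 CPM in UNX/DOCA vehicle and 84.8 to 144 CPM in UNX/DOCA ITF2357. Its log2 difference was 0.56 ± 0.22 on normal chow and -0.43 ± 0.22 on ITF2357, which left 0.06 ± 0.19 for the pool. The chow groups differed by -0.999 (95% interval -1.48 to -0.51, adjusted p = 0.0584) in Col3a1 and by -0.81 (-1.39 to -0.24, adjusted p = 0.138) in Col1a1. The signs of the pooled values of Col1a1 and Col3a1 changed under several alternatives, so no direction is given.

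Other collagens held members that were outside the Sham vehicle range in both chow groups. Of 15 tested, 4 were higher and 1 lower at an unadjusted p under 0.05, and Col14a1 (above) and Col6a6 (below) were separated. Col6a6, an alpha chain of type VI collagen, was at 11, 9.50, 8.94 and 10.1 CPM in Sham vehicle, 4.79, 5.79, 5.65 and 5.11 CPM in UNX/DOCA vehicle, and 7.47, 4.71, 7.28 and 7.58 CPM in UNX/DOCA ITF2357. All 8 were below the lowest Sham vehicle library (log2 difference -0.72 ± 0.13, adjusted p = 0.0512). Col14a1, which decorates collagen fibrils, was at 7.24 to 10.2 CPM in Sham vehicle, 11.8, 14.4, 34.5 and 21.4 CPM in UNX/DOCA vehicle, and 11.4 to 15.9 CPM in UNX/DOCA ITF2357 (0.86 ± 0.25, adjusted p = 0.125). The highest values of Col14a1 were again in UNX/DOCA vehicle replicates 3 and 4, and its log2 difference without them was 0.54. Col8a2, a network-forming collagen, had a log2 difference of 0.68 ± 0.40 on normal chow and 1.71 ± 0.38 on ITF2357.

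Tendon-type and activated fibroblast genes had a median log2 difference of 0.33 over 21 tested, with 7 higher and 1 lower at an unadjusted p under 0.05, 0 passing, and Scx and Angptl4 separated. The median was 0.14 without UNX/DOCA vehicle replicates 3 and 4, the libraries with the high neutrophil and macrophage markers. Scx, scleraxis, a transcription factor of tendon and of matrix-producing cells, was at 3.15, 3.85, 4.00 and 4.21 CPM in Sham vehicle, 8.47, 7.43, 6.86 and 10.1 CPM in UNX/DOCA vehicle, and 7.39, 5.38, 4.98 and 5.01 CPM in UNX/DOCA ITF2357. Every UNX/DOCA library lay above every Sham vehicle library (log2 difference 0.85 ± 0.15, adjusted p = 0.0512), with 1.11 ± 0.17 on normal chow and 0.58 ± 0.17 on ITF2357. The chow groups of Scx differed by -0.53 (95% interval -0.88 to -0.18, adjusted p = 0.123). Angptl4, a secreted inhibitor of lipoprotein lipase that is also a PPAR target, was at 2.51, 1.98, 6.53 and 6.09 CPM in Sham vehicle, 12.6, 15.4, 16.4 and 35.5 CPM in UNX/DOCA vehicle, and 8.80, 39.9, 10.5 and 12.6 CPM in UNX/DOCA ITF2357. The UNX/DOCA mean of Angptl4 was 4.43-fold that of Sham vehicle with wide scatter in each chow group (2.16 ± 0.54, adjusted p = 0.102). Lrrc15, a fibroblast surface protein, pointed the other way at -0.45 ± 0.12 (adjusted p = 0.102). Postn, periostin, a product of activated fibroblasts, was at 27.9 to 65.3 CPM in Sham vehicle and 33.9 to 94.8 CPM in UNX/DOCA (0.68 ± 0.28, adjusted p = 0.231), and Fn1, fibronectin, had 0.49 ± 0.25 on normal chow and 0.00 ± 0.25 on ITF2357.

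Proteoglycans and microfibril proteins followed the collagens in part. Of 13 proteoglycan genes, 5 were higher and 1 lower at an unadjusted p under 0.05 with a median of 0.31, and of 21 elastic fibre and microfibril genes, 5 were higher and 1 lower with a median of 0.15. In neither list did a gene pass. Lum, lumican, which spaces collagen fibrils, was at 48.7 to 61.4 CPM in Sham vehicle, 72.3 to 89.5 CPM in UNX/DOCA vehicle and 60.7 to 80.3 CPM in UNX/DOCA ITF2357, where 1 library overlapped Sham vehicle (log2 difference 0.41 ± 0.10, adjusted p = 0.0929). Srgn, serglycin, a proteoglycan of leukocyte granules, was separated at 23.4 to 25.2 CPM in Sham vehicle and 25.3 to 41.6 CPM in UNX/DOCA. Prg4, lubricin, was at 6.21 to 10.1 CPM in Sham vehicle, 21.1, 19.9, 65.6 and 68.7 CPM in UNX/DOCA vehicle, and 6.40, 54.7, 19.9 and 18.5 CPM in UNX/DOCA ITF2357. Only the first replicate on ITF2357 overlapped Sham vehicle in Prg4 (2.10 ± 0.58, adjusted p = 0.122). The same library overlapped in Mfap5, a microfibril protein, at 11 CPM against 10.1 to 17.1 CPM in Sham vehicle and 19.7 to 41.7 CPM in the other UNX/DOCA libraries (0.97 ± 0.24, adjusted p = 0.0982). Vcan, versican, a large matrix proteoglycan, had a log2 difference of 1.21 ± 0.27 on normal chow and 0.34 ± 0.27 on ITF2357, and Ltbp2, a microfibril protein related to the carriers of latent TGF-beta, had 1.64 ± 0.49 and 1.08 ± 0.49.

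Enzymes and inhibitors of the matrix gave a similar picture. Of 29 genes of collagen processing, 7 were higher and 1 lower at an unadjusted p under 0.05, and P3h2, a collagen prolyl hydroxylase, was separated at 3.27 to 3.84 CPM in Sham vehicle and 3.91 to 6.45 CPM in UNX/DOCA (log2 difference 0.59 ± 0.15, adjusted p = 0.104). Tgm2, a transglutaminase that crosslinks matrix, had like values on both chows (0.46 ± 0.14 and 0.42 ± 0.14), whereas Serpinh1, the collagen chaperone HSP47, had -0.13 ± 0.14 on normal chow and -0.63 ± 0.14 on ITF2357. Of 37 proteases and inhibitors, 8 were higher and 2 lower, with a median of 0.48 on normal chow and -0.07 on ITF2357. Timp1, an inhibitor of metalloproteinases, was at 1.52 to 4.76 CPM in Sham vehicle, 8.64, 4.53, 12.1 and 10.5 CPM in UNX/DOCA vehicle, and 1.89, 7.08, 3.93 and 3.73 CPM in UNX/DOCA ITF2357. Both chow groups of Timp1 overlapped Sham vehicle replicate 4 (1.24 ± 0.40, adjusted p = 0.151). Mmp17, a membrane-anchored metalloproteinase, had 0.48 ± 0.20 on normal chow and 0.81 ± 0.19 on ITF2357.

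Among secreted signals, Dkk3, a Dickkopf family protein, was at 2.47, 1.76, 1.82 and 3.56 CPM in Sham vehicle, 3.58, 4.59, 8.89 and 5.36 CPM in UNX/DOCA vehicle, and 6.43, 11.2, 8.72 and 6.09 CPM in UNX/DOCA ITF2357. It was separated, with Sham vehicle replicate 4 just under the lowest UNX/DOCA library (log2 difference 1.49 ± 0.29, adjusted p = 0.0622). Frzb, a secreted antagonist of Wnt ligands, had 0.84 ± 0.20 on normal chow and 0.09 ± 0.20 on ITF2357. Of 27 Wnt genes, 5 were higher and 1 lower at an unadjusted p under 0.05, and of 34 genes of TGF-beta and BMP signalling, 7 were higher and 0 lower, with 0 passing in either list. Fstl1, a follistatin-like protein of fibroblasts and muscle, was at 68.5 to 92.7 CPM in Sham vehicle, 139, 100.2, 176 and 163 CPM in UNX/DOCA vehicle, and 66.7 to 96.8 CPM in UNX/DOCA ITF2357. Fstl1 differed between the chow groups by -0.83 (95% interval -1.20 to -0.47, adjusted p = 0.0426), with 0.90 ± 0.17 against Sham vehicle on normal chow and 0.07 ± 0.17 on ITF2357. Inhba, the activin A subunit, had 0.89 ± 0.27 on normal chow and 0.68 ± 0.27 on ITF2357.

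Of 24 resident fibroblast genes, 6 were higher and 1 lower at an unadjusted p under 0.05, 0 passed, and Pi16 was separated above Sham vehicle. The median of the list was 0.30 on normal chow and 0.02 on ITF2357. Ly6a, the surface antigen SCA-1 of fibroblasts and endothelium, was at 81.3 to 113 CPM in Sham vehicle, 119 to 238 CPM in UNX/DOCA vehicle and 113 to 190 CPM in UNX/DOCA ITF2357 (log2 difference 0.85 ± 0.19, adjusted p = 0.0864). Medag, a gene of preadipocytes and fibroblasts, had a log2 difference of 1.14 ± 0.24 on normal chow and 0.56 ± 0.24 on ITF2357, and its first replicate on ITF2357 lay within the Sham vehicle range.

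**Figure D3:**
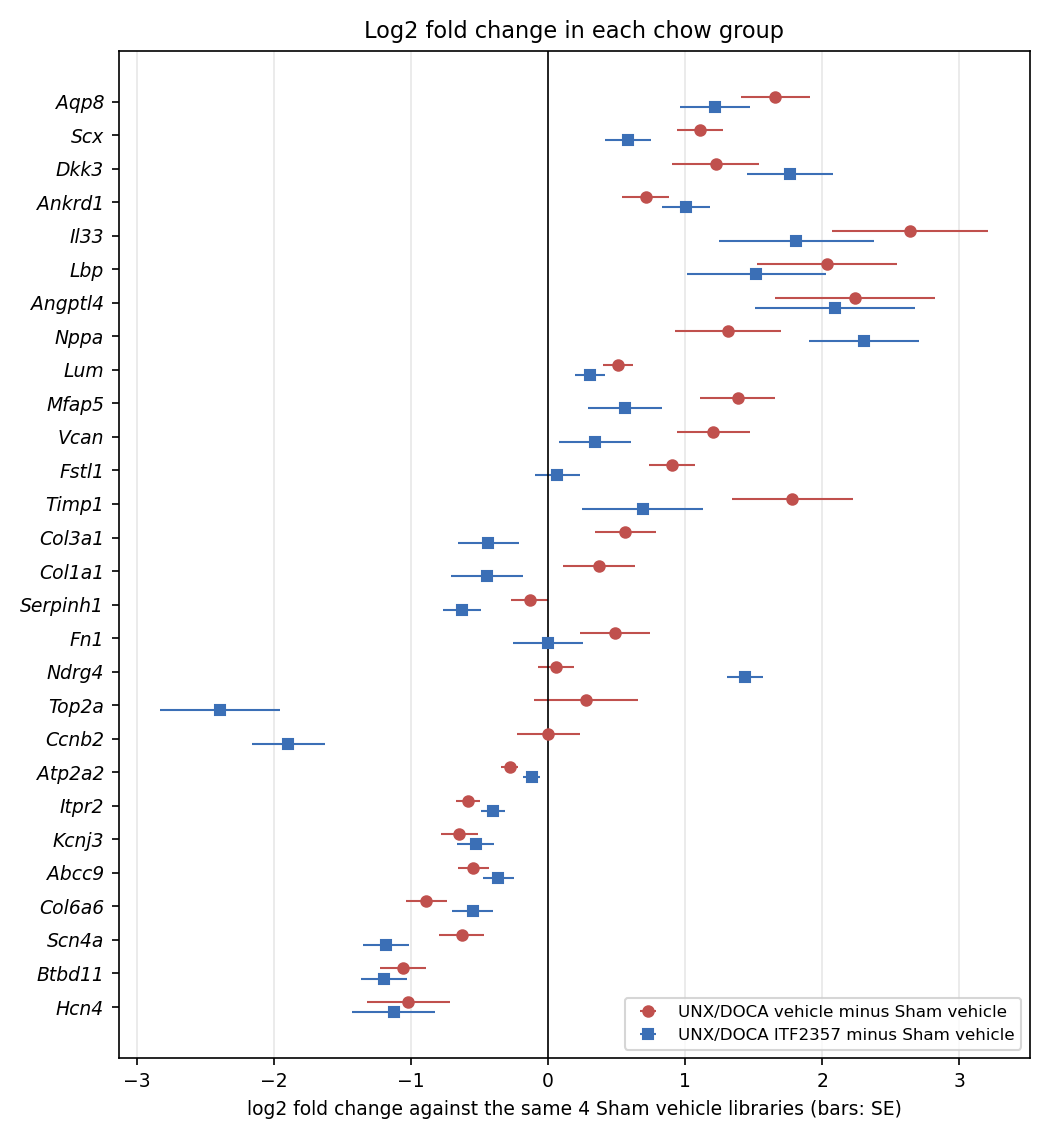
Log2 fold change of 28 named genes against the same 4 Sham vehicle libraries, for UNX/DOCA vehicle (circles) and UNX/DOCA ITF2357 (squares), with bars for the SE. Genes such as Aqp8, Dkk3, Itpr2 and Btbd11 lie on 1 side of 0 in both chow groups, Col1a1 and Col3a1 lie on opposite sides, and Ndrg4, Top2a and Ccnb2 lie away from 0 only on ITF2357.

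Water and solute transport genes had a median log2 difference of 0.00 over 26 tested, with 4 higher and 4 lower at an unadjusted p under 0.05 and 0 passing. Besides Aqp8, these included Fxyd5, a regulator of ion transport at the cell membrane. It was at 12.9 to 15 CPM in Sham vehicle, 24.4 to 44.5 CPM in UNX/DOCA vehicle, and 14.0, 25.2, 23.3 and 28.9 CPM in UNX/DOCA ITF2357 (0.97 ± 0.20, adjusted p = 0.0778). Of the 8 UNX/DOCA libraries of Fxyd5, the first replicate on ITF2357 alone lay within the Sham vehicle range.

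In metabolism, the respiratory chain had small values in 1 direction. Of 45 nuclear-encoded genes, 13 were lower and 0 higher at an unadjusted p under 0.05, 35 had a negative log2 difference, the median was -0.07, and 0 passed. Sdha, the flavoprotein of complex II, was the 1 separated, at 1284 to 1443 CPM in Sham vehicle and 1056 to 1257 CPM in UNX/DOCA (-0.22 ± 0.06, adjusted p = 0.099). Uqcrc1, a core subunit of complex III, had -0.10 ± 0.05 on normal chow and -0.23 ± 0.05 on ITF2357. Fatty acid genes were split, with 4 higher and 2 lower of 31, and with Fabp4 separated above and Etfa below Sham vehicle. Fabp4, a fatty acid carrier of endothelium and adipocytes, was separated at 67.6 to 84.8 CPM in Sham vehicle and 86.6 to 193 CPM in UNX/DOCA (0.72 ± 0.20, adjusted p = 0.112), and Fabp3, the heart muscle carrier, had 0.32 ± 0.08 (adjusted p = 0.0889). Fabp4 is also an adipocyte marker. Of the 5 adipocyte markers tested (11 listed), 4 were higher and 1 lower at an unadjusted p under 0.05, with a median log2 difference of 0.37 and Fabp4 and Cidea separated, while the defining markers Adipoq and Plin1 were at or below 0.675 CPM in every library. The summed adipocyte markers, most of them reads of Lpl, which heart muscle also expresses, were 4300 to 5010 CPM in Sham vehicle, 4660 to 5360 CPM in UNX/DOCA vehicle and 5170 to 6720 CPM in UNX/DOCA ITF2357, and their part in the Fabp4 result was not tested.

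Cytosolic ribosomal protein genes leaned up by small amounts. Of 48 tested, 31 were higher and 0 lower at an unadjusted p under 0.05, 47 had a positive log2 difference, and the median was 0.14 (0.06 on normal chow, 0.23 on ITF2357), yet 0 passed and 1, Rpl14, was separated. Rpl3, a large subunit protein, was at 74.3 to 88.3 CPM in Sham vehicle and 85.7 to 147 CPM in UNX/DOCA (0.49 ± 0.13, adjusted p = 0.102). Rps18, a small subunit protein with many near-identical pseudogenes, is uncertain, since reads can be split among the copies, and was at 1.34 to 1.96 CPM in Sham vehicle and 1.45 to 2.84 CPM in UNX/DOCA.

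The list of chemokines, cytokines and alarmins held 2 of the 4 called genes, Cysltr1 and Ccl24. Of its 39 genes tested, 9 were higher and 3 lower at an unadjusted p under 0.05, with a median of 0.41 on normal chow and -0.03 on ITF2357. Il33, an alarmin released by damaged stromal cells, was at 2.51, 1.98, 3.01 and 2.16 CPM in Sham vehicle, 2.94, 9.15, 27.4 and 20.9 CPM in UNX/DOCA vehicle, and 4.25, 11.7, 7.77 and 10.0 CPM in UNX/DOCA ITF2357. Of the 8 UNX/DOCA libraries, 7 exceeded the Sham vehicle range, and the first replicate on normal chow did not. The UNX/DOCA mean of Il33 was 4.87-fold that of Sham vehicle (2.23 ± 0.52, adjusted p = 0.0929), and the log2 difference was 1.57 without UNX/DOCA vehicle replicates 3 and 4, the libraries with the high neutrophil markers. Ccl4, a chemokine for monocytes and T cells, was at 0.307 to 1.44 CPM in Sham vehicle and 0.00 to 0.575 CPM in UNX/DOCA, and the number of reads behind these values is small.

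Complement and acute phase genes had a median log2 difference of 0.65 over 26 tested (0.89 on normal chow, 0.38 on ITF2357). Of these, 25 had a positive value and 13 were higher and 1 lower at an unadjusted p under 0.05, but 0 passed and 0 were separated. Lbp, which carries bacterial lipopolysaccharide, was at 2.73 to 3.84 CPM in Sham vehicle, 3.71, 7.37, 28.6 and 12 CPM in UNX/DOCA vehicle, and 5.10, 10.5, 9.28 and 11.1 CPM in UNX/DOCA ITF2357 (1.78 ± 0.47, adjusted p = 0.107). Cfi, complement factor I, was at 0.0838 to 0.266 CPM in Sham vehicle and 0.202 to 0.994 CPM in UNX/DOCA (1.65 ± 0.45, adjusted p = 0.113). Lbp and Il33 shared the pattern in which 7 libraries exceeded Sham vehicle and the first vehicle replicate did not, and Lbp was 1.17 on the log2 scale without vehicle replicates 3 and 4.

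Markers of immune cells moved with single libraries. The macrophage list had 4 of 22 genes higher and 0 lower at an unadjusted p under 0.05, with a median of 0.63 on normal chow and 0.15 on ITF2357. C1qb, a complement subunit made by macrophages, was at 26.2 to 36.7 CPM in Sham vehicle, 32.7, 48.2, 100.5 and 71.7 CPM in UNX/DOCA vehicle, and 29.9 to 59.0 CPM in UNX/DOCA ITF2357, and its log2 difference of 0.69 ± 0.26 was 0.36 without vehicle replicates 3 and 4. Lgals3, galectin-3, had 1.33 ± 0.40 on normal chow and 0.68 ± 0.40 on ITF2357. Of 12 neutrophil genes, 0 had an unadjusted p under 0.05, and the pooled median of 0.65 joined 2.49 on normal chow with -1.09 on ITF2357, so it describes neither chow group. The pooled median of the neutrophil genes was -1.28 without UNX/DOCA vehicle replicates 3 and 4.

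Some pooled values came from the drug group alone. Of 32 cell cycle genes, 8 were lower and 0 higher at an unadjusted p under 0.05, with a median of 0.09 on normal chow and -0.39 on ITF2357. Top2a, a topoisomerase of dividing cells, was at 2.37 to 3.69 CPM in Sham vehicle, 1.82 to 5.82 CPM in UNX/DOCA vehicle and 0.328 to 0.850 CPM in UNX/DOCA ITF2357. Ccnb2, a mitotic cyclin, was at 0.646 to 0.810, 0.611 to 0.937 and 0.131 to 0.243 CPM in the same order. The 4 libraries on ITF2357 lay below the other 8 for both, and the chow groups differed by -2.67 (95% interval -3.62 to -1.73, adjusted p = 0.0204) in Top2a and by -1.90 (-2.47 to -1.32, adjusted p = 0.011) in Ccnb2.

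B cell genes had the same form. All 10 tested had negative log2 differences and 6 had an unadjusted p under 0.05, with a median of -0.24 on normal chow and -1.92 on ITF2357. Ighd, the heavy chain of immunoglobulin D, was at 1.11 to 2.00 CPM in Sham vehicle, 0.517 to 2.29 CPM in UNX/DOCA vehicle and 0.121 to 0.262 CPM in UNX/DOCA ITF2357. The chow groups differed by -3.03 in Ighd (95% interval -4.04 to -2.02, adjusted p = 0.0196) and by -1.78 in Cd79b, a subunit of the B cell receptor (-2.56 to -0.996, adjusted p = 0.0432). The pooled differences of Top2a, Ccnb2, Ighd and Cd79b thus come with UNX/DOCA vehicle values that overlap Sham vehicle. The number of reads behind the ITF2357 values of Ccnb2, Ighd and Cd79b is small. The pooled median of the B cell genes was -0.97, and -0.39 where only genes of at least 1 CPM in 4 libraries were kept.

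Erythroid genes, in contrast, had like medians in the chow groups, -0.57 on normal chow and -0.50 on ITF2357. Of 13 tested, 6 were lower and 0 higher at an unadjusted p under 0.05, 0 passed, and Alas2 was separated below Sham vehicle. Alas2 was at 24.5 to 28.4 CPM in Sham vehicle, 7.32 to 21.7 CPM in UNX/DOCA vehicle and 12.5 to 23.5 CPM in UNX/DOCA ITF2357. Hbb-bt, an adult beta-globin, was at 43.5 to 49.0 CPM in Sham vehicle, 15.9, 26.7, 25.4 and 27.3 CPM in UNX/DOCA vehicle, and 50.5, 21.3, 19.4 and 24.3 CPM in UNX/DOCA ITF2357. The first replicate on ITF2357 was above every other library, and the other 7 were below Sham vehicle (-0.79 ± 0.23, adjusted p = 0.124). Hbb-bt shares long stretches with Hbb-bs, so reads may be split between them. Slc4a1, the red cell anion exchanger, had a log2 difference of -1.47 ± 0.39 (adjusted p = 0.108). The summed erythroid markers were 613 to 729 CPM in Sham vehicle, 332 to 554 CPM in UNX/DOCA vehicle, and 781, 425, 438 and 488 CPM in UNX/DOCA ITF2357.

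**Figure D4:**
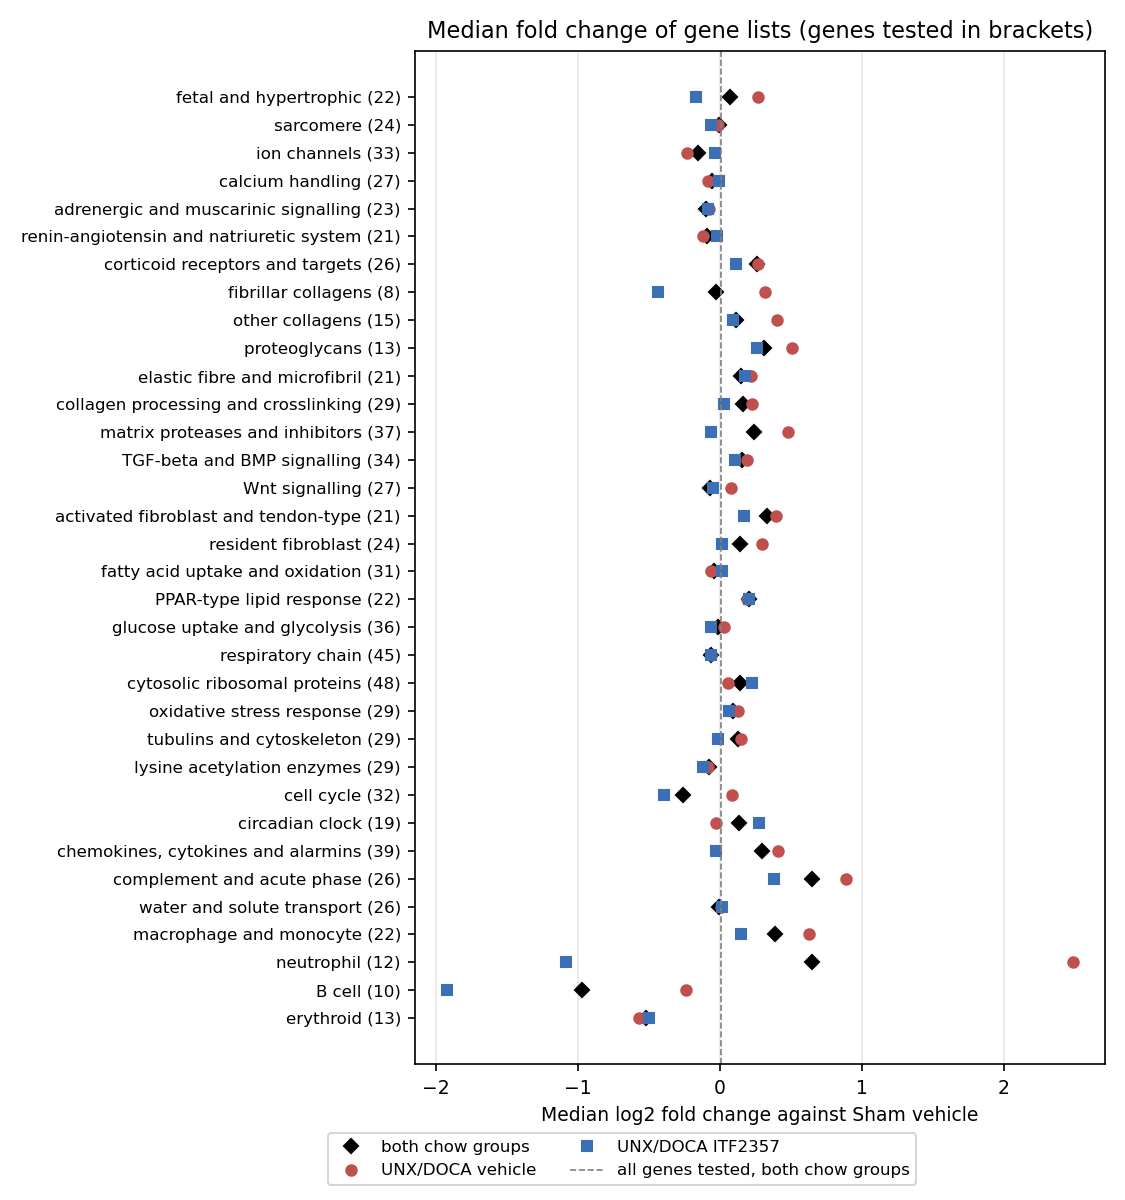
Median log2 fold change against Sham vehicle (x axis) of 34 gene lists, with the number of genes tested in brackets, for both chow groups together (diamonds), UNX/DOCA vehicle (circles) and UNX/DOCA ITF2357 (squares). Erythroid, PPAR-type and respiratory chain genes have like medians in the chow groups, whereas neutrophil, B cell, cell cycle and fibrillar collagen genes do not.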

How the data were processed

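The authors deposited raw counts per Ensembl gene for 12 libraries of poly(A) RNA from about 10 mg of left ventricle, prepared with a strand-specific kit and read as pairs of 150 bases per the labels. Per the submitters' processing notes, FastQC 0.11.9 and STAR 2.7.10b were used with mm39. No label names the counting tool, its strand setting or the annotation release (not given in the sources used here), and a gene and an antisense partner therefore cannot be told apart. Drug libraries were grouped by title, which reads ITF2357 for all 4, since their treatment labels carry different numbers. Symbols were matched by Ensembl identifier to a GRCm38 table, and 15957 of the 16981 genes tested have one.

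The counts went into edgeR 4.0.16, run in R 4.3.3 (filterByExpr with a minimum of 10, TMM scaling, robust quasi-likelihood fit with a term per group, 9 residual degrees of freedom, common biological coefficient of variation 0.187). Every adjusted p is Benjamini-Hochberg over all genes from this fit unless another tool is named, with a threshold of 0.05. The SE of a log2 difference is its absolute value over the square root of F. Levels are TMM-scaled CPM, and 1 CPM is about 28.3 reads at the mean depth. The replicates are different animals per the labels' protocols, and counts within a group varied 10.7 to 55.8 times more than counting error (chi-square per degree of freedom). The fit was tested on simulated data. Same-numbered libraries of different groups had correlations of centred expression from -0.19 to 0.25 (median 0), so numbers were not used as pairs.

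The comparison and the gene lists were chosen with earlier results of these data known. Of the 63 lists, 34 are described by counts or medians. Other marker lists are given only where they bear on a named gene or on tissue content, and the remaining lists are not described. Named genes were those called and separated, a fixed set of 12 (Fkbp5, Nr3c2, Atp2a2, Fn1, Postn, Col3a1, Col1a1, Acta1, Myh6, Myh7, Nppb and Nppa), up to 4 members of each of 34 described lists with the smallest p, called genes that also differed between the chow groups, and the 5 smallest p in each direction. Zfp763 and the marker genes named for levels alone (Cnn1 among them) were added after their values were seen, and 1 gene that the rule names is not reported here. Alternatives were RLE and upper-quartile scaling, all genes kept, genes of at least 1 CPM in 4 libraries, a replicate block, DESeq2 1.42.0, voom from limma 3.58.1, a fit with the 8 UNX/DOCA libraries as 1 group, glmTreat against a 1.2-fold change, and each library left out.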

Additional observations from a re-analysis of the deposited data

Results flagged for a closer look

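In the 4 libraries of a group, a value was set aside for a closer look where its gap to the nearest other library as a share of the group's range was above Dixon's 95% critical value. Of 297 gene and group pairs, 24 met this, where 15 would be expected by chance at 1 in 20. The Sham vehicle library of replicate 3 held 7 of them. Sham vehicle replicate 4 had Postn at 65.3 CPM, Serpina3n at 52.2 CPM, Frzb at 6.45 CPM, Rps18 at 1.96 CPM and Lgals3 at 3.08 CPM far above the rest of its group. Sham vehicle replicate 3 had Fkbp5 at 150 CPM, Agt at 6.57 CPM, Mt2 at 0.95 CPM, Fabp3 at 2576 CPM and Ciart at 19.8 CPM far above, and Pde4b at 36.2 CPM and Serpinh1 at 136 CPM far below the rest of its group. Sham vehicle replicate 1 had Hdac5 at 96.7 CPM far above the rest of its group. UNX/DOCA vehicle replicate 3 had Abcc9 at 241 CPM far below the rest of its group. UNX/DOCA vehicle replicate 4 had Angptl4 at 35.5 CPM far above the rest of its group. UNX/DOCA vehicle replicate 1 had Hbb-bt at 15.9 CPM far below the rest of its group. UNX/DOCA ITF2357 replicate 2 had Fn1 at 58.4 CPM and Angptl4 at 39.9 CPM far above, and Col6a6 at 4.71 CPM far below the rest of its group. UNX/DOCA ITF2357 replicate 1 had Hcn4 at 9.43 CPM, Col8a2 at 1.29 CPM, Scx at 7.39 CPM and Hbb-bt at 50.5 CPM far above, and Fkbp5 at 42.4 CPM far below the rest of its group.

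The difference between the chow groups, which is the difference between their changes from Sham vehicle, passed for 8 named genes (edgeR, ITF2357 minus vehicle on the log2 scale). It was 0.86 for Zdhhc2, 1.38 for Ndrg4 and 0.74 for Zfp763. It was -0.83 for Fstl1, -1.90 for Ccnb2, -2.67 for Top2a, -3.03 for Ighd and -1.78 for Cd79b. The levels of these genes in every group are given with the results, and no explanation was tested.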

How the results depend on the processing

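The count of genes that passed between UNX/DOCA and Sham vehicle (4) was the least stable value. It was 4 with RLE scaling, 19 with upper-quartile scaling, 266 with no filter, 32 with a filter of 1 CPM in 4 libraries, 779 in DESeq2, 1339 in limma-voom with sample weights, 2 with the 8 libraries as 1 group and 0 with glmTreat. With each library left out in turn it ran from 0 to 186. The count present with and without ITF2357 (3) was 16, 118, 28, 269, 320 and 0 with upper-quartile scaling, no filter, the 1 CPM filter, DESeq2, limma-voom and glmTreat, and 0 to 136 with a library left out. The count between the chow groups (153) was 352 with no filter, 928 in DESeq2, 251 in limma-voom, and 14 to 243 with a library left out (UNX/DOCA ITF2357 replicate 1 and UNX/DOCA vehicle replicate 1). With a replicate block the 3 counts were 10, 7 and 68, and since the numbers do not pair the animals these are no test of pairing. Without UNX/DOCA vehicle replicates 3 and 4 together, an alternative added after seeing the data, they were 0, 0 and 12. The cause of these shifts was not tested.

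Of the 2172 values of named genes under an alternative, 1876 kept their direction and side of the threshold, 248 passed where they had not, 36 no longer passed and 12 changed sign. On the log2 scale Col3a1 was -0.079 in limma-voom and -0.027 without UNX/DOCA vehicle replicates 3 and 4, and it ran from -0.039 (without Sham vehicle replicate 3) to 0.167 with a library left out. Col1a1 was 0.02 with the 8 libraries as 1 group and ran from -0.189 to 0.032 (without UNX/DOCA vehicle replicate 2) with a library left out. Nppb ran from -0.426 to 0.028, the latter when Sham vehicle replicate 3 was left out. Fn1 was -0.033 without UNX/DOCA vehicle replicates 3 and 4. List medians moved by less than the spread between replicates in 741 of 748 cases. The other 7 were in the B cell, calcium handling, other collagens, activated fibroblast and neutrophil lists. The B cell median was -0.39 with the filter of 1 CPM in 4 libraries, against -0.97 in the main fit.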

Other observations

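Glycolysis and oxidative stress genes held members with higher and members with lower values in UNX/DOCA. Of 36 genes of glucose uptake and glycolysis, 4 were higher and 7 lower at an unadjusted p under 0.05, against 9.72% and 8.16% of all genes. In this list 20 genes had a negative log2 difference, the median was -0.02, and 0 passed the adjusted test of edgeR. Aldoa, the muscle aldolase, was separated at 2.51 to 3.12 CPM in Sham vehicle and 3.27 to 6.03 CPM in UNX/DOCA (log2 difference 0.71 ± 0.17, adjusted p = 0.0889), and it has near-identical copies among which reads can be split. Pfkp, a phosphofructokinase, was at 54.4 to 77.5 CPM in Sham vehicle, 98.8 to 112 CPM in UNX/DOCA vehicle and 69.5 to 90.9 CPM in UNX/DOCA ITF2357 (0.48 ± 0.10, adjusted p = 0.0686). Pfkfb1, which sets the level of fructose 2,6-bisphosphate, had -1.12 ± 0.27 on normal chow and -0.38 ± 0.26 on ITF2357. Of 29 oxidative stress genes, 6 were higher and 1 lower. Gpx3, a secreted glutathione peroxidase, was at 167 to 226 CPM in Sham vehicle and 221 to 327 CPM in UNX/DOCA, with 0.50 ± 0.13 on normal chow and 0.52 ± 0.13 on ITF2357. Nox4, an NADPH oxidase, had 0.69 ± 0.23 and 0.54 ± 0.23.

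Cytoskeletal and acetylation genes gave small values. Of 29 tubulin and cytoskeleton genes, 6 were higher and 2 lower at an unadjusted p under 0.05. Tmsb10, which binds actin monomers, was separated at 7.36 to 8.97 CPM in Sham vehicle and 9.26 to 12.5 CPM in UNX/DOCA (0.39 ± 0.09, adjusted p = 0.0875), and Tubb6, a tubulin raised in stressed muscle, had 0.60 ± 0.14 on normal chow and 0.32 ± 0.14 on ITF2357. Of 29 lysine acetylation enzymes, the group that holds the targets of ITF2357, 7 were lower and 0 higher. In this list 6 had a positive log2 difference, the median was -0.08, and Sirt3 was separated below Sham vehicle. Hdac5, a deacetylase that restrains hypertrophic genes, was at 83.0 to 96.7 CPM in Sham vehicle and 63.9 to 87.9 CPM in UNX/DOCA (-0.28 ± 0.09, adjusted p = 0.164), and Ep300, an acetyltransferase, had -0.34 ± 0.15 on each chow. None of these lists held a gene that passed.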
